A study of Mus musculus with 6 samples.

Results

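Receptors for the constant part of immunoglobulin G let macrophages bind and engulf particles coated with antibody. In the mouse the activating receptors Fcgr1, Fcgr3 and Fcgr4 hold their signal in a separate chain, Fcer1g, whose tyrosine motif (ITAM) is phosphorylated by Src family kinases and then bound by the kinase Syk. The inhibitory receptor Fcgr2b carries a tyrosine motif of the opposite effect (ITIM) in its own tail, which recruits the lipid phosphatase encoded by Inpp5d, and the balance of both kinds sets how strongly a macrophage responds to immune complexes. Fcgrt encodes the heavy chain of the neonatal Fc receptor, which binds immunoglobulin G inside endosomes and returns it to the cell surface.

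These 8 genes were picked by name from a table of 18392 genes, and all 8 were listed and passed the filter on low values. RNA had been sequenced from alveolar macrophages, the phagocytes of the air spaces, sorted from digested lungs of C57BL/6 mice that were 6 weeks old. Control libraries came from Hdac3fl/fl mice and knockout libraries from Cd11c-CreHdac3fl/fl mice, 3 libraries each, and the floxed alleles were present in either group. The Cd11c promoter is also active in dendritic cells, and as only knockouts carry Cre, effects of Cre and of the deletion cannot be told apart. The labels do not say whether a library is 1 mouse, so the p-values reflect variation among libraries alone, which may be technical.

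The deposited values are FPKM, fragments scaled to transcript length and to the mapped fragments of the library, so levels can be set side by side between genes. Hdac3, the deleted deacetylase, had 17.71, 19.89 and 16.94 FPKM in the controls and 4.36, 5.05 and 3.97 FPKM in the knockouts. Knockout libraries put 25.5 to 26.8% of their FPKM sum into their 10 most abundant genes, control libraries 13.2 to 13.9%. Over all tested genes the median log2 change was -0.31. Each change is therefore given as deposited and again with libraries scaled by a trimmed mean of log ratios (TMM), which moved that median to 0.02. Changes are knockout minus control on the scale log2(FPKM + 1), and a gene was called at an adjusted p under 0.05 in limma's moderated test over all tested genes. Summed FPKM of 10 alveolar macrophage markers were 16609 to 19029 in controls and 22428 to 29250.5 in knockouts, most of it Chil3. Without Chil3 the sums were 4703 to 5040.1 and 4092 to 4583 FPKM. As deposited 4 of the 10 were called higher (Itgax, Chil3, Car4 and Mrc1) and 4 lower, Ear2 by 5.41 times, Krt79 by 7.32 times, Pparg by 1.75 times and Marco by 1.65 times, and all 4 were also lower with TMM. The surface lectin Siglecf had 234 ± 3.93 and 226 ± 9.62 FPKM and Fabp4 53.8 ± 14.8 and 70.7 ± 21.9 FPKM, neither called as deposited. With TMM Siglecf was called higher (log2 change 0.32; limma adjusted p = 0.0016) and Fabp4 was not called. The identity markers thus went both ways.

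The coding stretches below show the motif that carries the signal in each arm, as known from earlier work, read from GENCODE transcripts on GRCm38 with the motif's codons in capitals. The capitals are codons 317 to 322 of the longer listed Fcgr2b transcript and codons 65 to 79 of Fcer1g. Each stretch crosses an exon junction, so its genomic span is longer than the printed run. The Fcgr2b value in the table pools 2 transcripts, of 340 and 293 codons, and both carry this stretch. The loose letter pattern used to find the ITIM also matched Fcgr1 at codons 141 to 146 and 303 to 308, Fcgr4 at codons 219 to 224 and Fcer1g at codons 41 to 46. The pattern alone therefore does not separate the arms, and the Fcgr2b match is printed because it is the one known to act as an ITIM.
Fcgr2b ITIM codons, chr1:170961056-170961198, minus strand: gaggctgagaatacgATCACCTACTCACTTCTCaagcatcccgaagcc
Fcer1g ITAM codons, chr1:171229874-171230087, minus strand: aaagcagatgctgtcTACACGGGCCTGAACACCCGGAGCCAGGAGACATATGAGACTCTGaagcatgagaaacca

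Fcgr2b and Fcgr3 are near copies over the part that codes for the outer domains, which bears on how reads were divided between them. Their coding sequences were identical at 86.7% of 782 aligned bases, against 64.1 to 68.6% for the other pairs among the 4 ligand-binding receptors. Of all windows of 50 bases, 12.8% of those in the Fcgr3 transcript also occurred in the Fcgr2b transcript and 4.7% the other way. Other pairs shared 0.0% of such windows. The longest run common to both transcripts has 129 bases, lies in coding sequence across an exon junction, and is shown because a read lying wholly inside it matches both genes.
Run shared by Fcgr2b and Fcgr3, chr1:170966674-170968081 in Fcgr2b, minus strand: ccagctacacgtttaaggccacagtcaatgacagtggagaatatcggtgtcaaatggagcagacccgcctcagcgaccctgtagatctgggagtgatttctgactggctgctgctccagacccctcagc

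Fcgr2b was the gene of the set that differed most between the groups. It had 154.54, 160.51 and 128.80 FPKM in the controls and 5.16, 4.22 and 3.68 FPKM in the knockouts, so the groups lay far apart. Its mean fell from 148 ± 16.9 to 4.35 ± 0.749 FPKM (SD, n = 3), 34.0 times lower, with a log2 change of -4.80 (SE 0.12; limma adjusted p = 4.9e-08) and of -4.46 with TMM (limma adjusted p = 1.0e-07). Only 2 of the 10847 tested genes had a lower change. The rank of Fcgr2b among all listed genes of a library, which scaling does not touch, went from 451 to 566 in controls to 7133 to 8027 in knockouts. In bulk RNA, fewer cells of a kind and less RNA per cell cannot be told apart.

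Fcgr2b is also made by B cells and endothelial cells, whose markers were lower in the knockout libraries as well. The 6 listed B cell markers summed to 30.6, 23.4 and 15.1 FPKM in the controls and 6.47, 7.07 and 5.71 FPKM in the knockouts, a ratio of group means of 3.59. All 4 of them that were tested, Cd79a, Cd79b and Ms4a1 among them, fell under both scalings, and none was at 0 in every library. The 6 endothelial markers summed to 34.5, 19.6 and 14.7 FPKM in the controls and 4.21, 3.39 and 4.92 FPKM in the knockouts, a ratio of 5.50. Of these, Cldn5, Cdh5, Pecam1 and Tie1 fell under both scalings, Kdr fell as deposited and Stab2 was not tested. Fcgr2b lay above both sums in every control library, and below the B cell sum in every knockout library. It lay above the endothelial sum in knockout replicates 1 and 2 and below it in knockout replicate 3. A sum of markers does not measure how much Fcgr2b such cells supply. Dendritic cells can carry Fcgr2b too. Their 6 markers summed to 4.43 to 13 FPKM in controls and 4.47 to 7.9 FPKM in knockouts, which overlapped. Clec9a alone of the 6 had a higher mean in knockouts. Ccr7 fell from 5.34 ± 3.03 to 1.17 ± 0.172 FPKM and Clec9a rose from 1.5 ± 0.503 to 4.4 ± 1.65 FPKM, both also with TMM. The other 4 were not tested and lay under 1 FPKM in every library, each with a lower mean in knockouts. Flt3 had 0.467 ± 0.335 and 0.04 ± 0.0173 FPKM and Xcr1 0.68 ± 0.0854 and 0.2 ± 0.0436 FPKM. Zbtb46 had 0.473 ± 0.321 and 0.133 ± 0.0808 FPKM and Siglech 0.223 ± 0.101 and 0.133 ± 0.0321 FPKM, both with overlapping groups. The part of these cells in the values of Fcgr2b was not tested.

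Fcgr4, an activating receptor of intermediate affinity, was the 1 ligand-binding receptor that rose. Its values were 117.03, 117.86 and 107.75 FPKM in the controls and 174.41, 160.53 and 158.00 FPKM in the knockouts. Every knockout library was above every control library. The mean rose from 114 ± 5.61 to 164 ± 8.84 FPKM, with a log2 change of 0.52 (SE 0.06; limma adjusted p = 1.0e-04) and of 0.90 with TMM (limma adjusted p = 6.5e-06). Among all tested genes, 94.4% had a lower change as deposited. Neutrophils, monocytes and NK cells also carry activating receptors. The 7 neutrophil markers summed to 77.1 to 94.3 FPKM in controls and 46.3 to 67.6 FPKM in knockouts. That difference was Csf3r alone, which fell from 34.9 ± 13.7 to 4.77 ± 0.911 FPKM. Without it the sums were 43.8 to 55.7 and 42.5 to 62 FPKM and overlapped, and Cxcr2 was called higher with TMM. The 10 monocyte and interstitial macrophage markers summed to 8.43 to 11.1 and 8.43 to 11.4 FPKM, with members going opposite ways. C1qb rose 4.01 times, with C1qa and C1qc at 4.73 and 5.19 times the control mean but not tested, while Ccr2 fell 2.78 times and Ly6c2, not tested, was 3.35 times lower. The 6 NK cell markers summed to 6.18 to 7.65 and 1.8 to 2.26 FPKM. Most of the control sum was Gzma, the only 1 tested, which fell from 5.07 ± 0.327 to 1.01 ± 0.15 FPKM. The other 5 were under 1 FPKM in every library, and Klrb1c among them was not lower (0.48 ± 0.229 and 0.607 ± 0.0702 FPKM). The part of these cell types in the values of the activating receptors was not tested.

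Fcgr3, an activating receptor of low affinity for immune complexes, had the highest level of the 4 ligand-binding receptors in every library. It had 327.92, 339.77 and 397.51 FPKM in the controls and 256.23, 205.43 and 271.32 FPKM in the knockouts, which did not overlap. Its mean fell from 355 ± 37.2 to 244 ± 34.5 FPKM as deposited, with a log2 change of -0.54 (SE 0.12; limma adjusted p = 0.0032). After TMM scaling the log2 change was -0.17 (95% interval -0.43 to 0.10; limma adjusted p = 0.26) and the libraries of the groups overlapped. The call for Fcgr3 thus depended on the scaling, and that for its near copy Fcgr2b did not.

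Fcgr1, the high-affinity receptor that binds single immunoglobulin molecules, had the lowest level of the 3 activating receptors. It stood at 27.03, 27.61 and 34.75 FPKM in the controls and at 19.30, 16.33 and 17.97 FPKM in the knockouts, without overlap. The mean fell from 29.8 ± 4.30 to 17.9 ± 1.49 FPKM, with a log2 change of -0.70 (SE 0.10; limma adjusted p = 3.1e-04) and of -0.34 with TMM (limma adjusted p = 0.018).

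**Figure D1:**
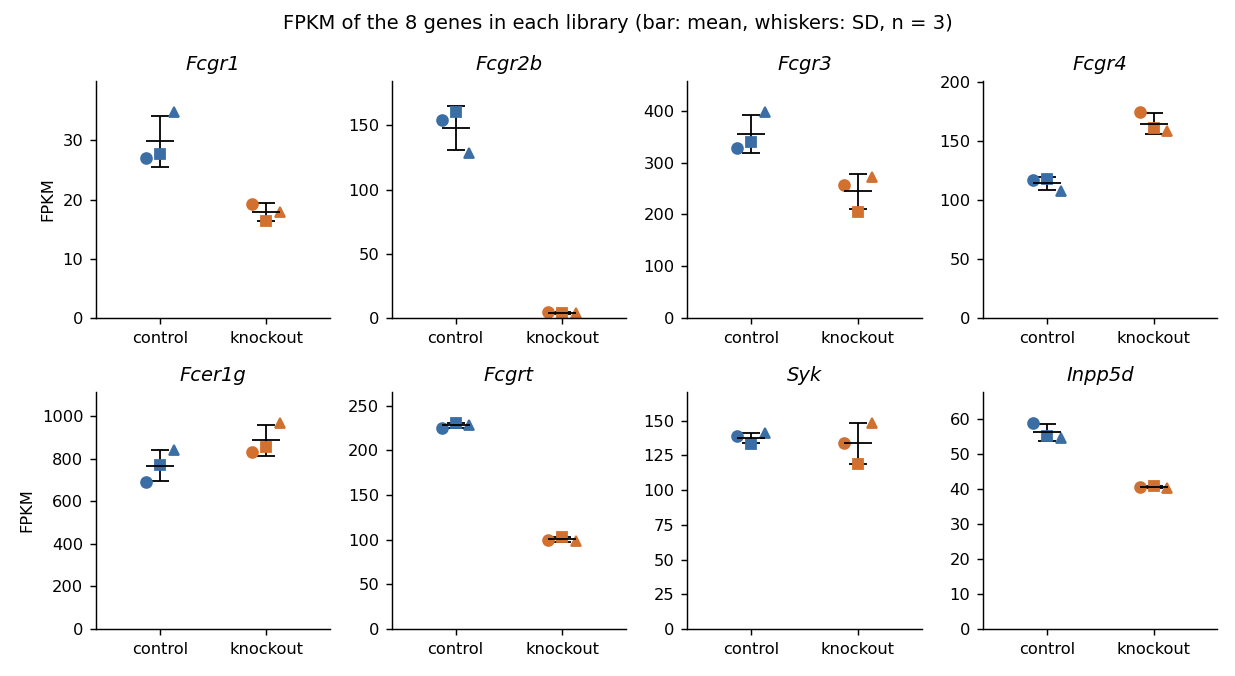
FPKM of the 8 genes (vertical axes, each from 0) in the 3 control and 3 knockout libraries; symbols mark the replicate number, the bar the mean and the whiskers the SD. Fcgr2b drops from 128.80 or more to 5.16 or less, Fcgr4 is higher in every knockout library, and Fcer1g and Syk overlap between the groups.

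Fcer1g, the ITAM chain that the mouse activating receptors need to reach the surface, was the most abundant gene of the set. It had 691.87, 770.34 and 840.06 FPKM in the controls and 832.84, 856.69 and 969.41 FPKM in the knockouts, so the lowest knockout library lay below the highest control library. The means were 767 ± 74.1 and 886 ± 72.9 FPKM, with a log2 change of 0.21 (95% interval 0.01 to 0.41; limma adjusted p = 0.062). After TMM scaling it rose by 0.59 on the log2 scale (limma adjusted p = 5.3e-04). As deposited the call turned on single libraries: without control replicate 3 the log2 change was 0.28 (limma adjusted p = 0.022), and without knockout replicate 1 it was 0.25 (limma adjusted p = 0.0498).

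The kinase Syk, which docks on the phosphorylated ITAM, had 138.61, 133.32 and 140.85 FPKM in the controls and 133.84, 118.56 and 148.57 FPKM in the knockouts. The control values lay within the range of the knockouts. The log2 change as deposited was -0.05 (95% interval -0.23 to 0.14; limma adjusted p = 0.62), and with TMM Syk rose by 0.33 on that scale (limma adjusted p = 0.009).

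Inpp5d, the phosphatase of the inhibitory arm, had 58.97, 55.07 and 54.63 FPKM in the controls and 40.70, 40.84 and 40.23 FPKM in the knockouts. All knockout libraries were lower, and its mean fell from 56.2 ± 2.39 to 40.6 ± 0.320 FPKM as deposited (log2 change -0.46, SE 0.05; limma adjusted p = 8.2e-05). After TMM scaling the log2 change was -0.09 (95% interval -0.22 to 0.04; limma adjusted p = 0.20), and as deposited 34.9% of tested genes had a lower change than Inpp5d.

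Fcgrt, the neonatal Fc receptor, fell under both scalings with little spread. Its values were 225.25, 231.19 and 228.12 FPKM in the controls and 100.03, 103.07 and 98.08 FPKM in the knockouts, 2.27 times lower in the mean and far from overlap. It fell by 1.18 on the log2 scale (SE 0.05; limma adjusted p = 3.6e-07), or by 0.80 with TMM (limma adjusted p = 3.3e-06). Its light chain B2m, which it shares with other class I molecules, had 1102.61, 1131.73 and 1086.46 FPKM in the controls and 1125.35, 928.43 and 1095.80 FPKM in the knockouts and overlapped. As deposited its log2 change was -0.08 and missed the threshold (limma adjusted p = 0.39), and with TMM it rose by 0.30 (limma adjusted p = 0.015). Fcgrt is also made by endothelial and epithelial cells. The endothelial sums are given above, and the 6 epithelial markers summed to 274, 146 and 90.2 FPKM in the controls and 38.8, 43.3 and 105 FPKM in the knockouts, which overlapped through Scgb1a1 in knockout replicate 3 (56.52 FPKM, against 5.15 and 4.75 FPKM in the other knockouts). Without Scgb1a1 the sums were 111, 82.6 and 60.5 FPKM in the controls and 33.6, 38.5 and 48.7 FPKM in the knockouts, with no overlap. Sftpc fell 3.45 times as deposited (log2 change -1.73) and was also lower with TMM (-1.36), and Sftpa1 fell 2.42 times as deposited only. Cdh1, of the same list, went the other way, from 17.3 ± 2.15 to 20.2 ± 0.616 FPKM. It was called higher under both scalings (log2 change 0.22, 0.58 with TMM). The part of endothelial and epithelial cells in the fall of Fcgrt was not tested. The ratio of B2m to Fcgrt in a library was 4.85 ± 0.0765 in controls and 10.5 ± 1.27 in knockouts.

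Of the 8 genes, 1 was called higher and 5 lower as deposited. Among all tested genes 69.8% were called, 11.0% higher and 58.8% lower. After TMM scaling 3 of the 8 were higher and 3 lower, against 30.0% higher and 26.0% lower, or 56.0% called, among all tested genes. The groups did not overlap for 6 of the 8 genes as deposited, and for 74.5% of all tested genes. With TMM these were 7 of 8 and 64.2%. The number of calls in the set was thus near that of the table, and Fcgr2b stood out by the size of its change. The median log2 change of the 8 genes was -0.50, or -0.13 with TMM, beside -0.31 and 0.02 for all tested genes.

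**Figure D2:**
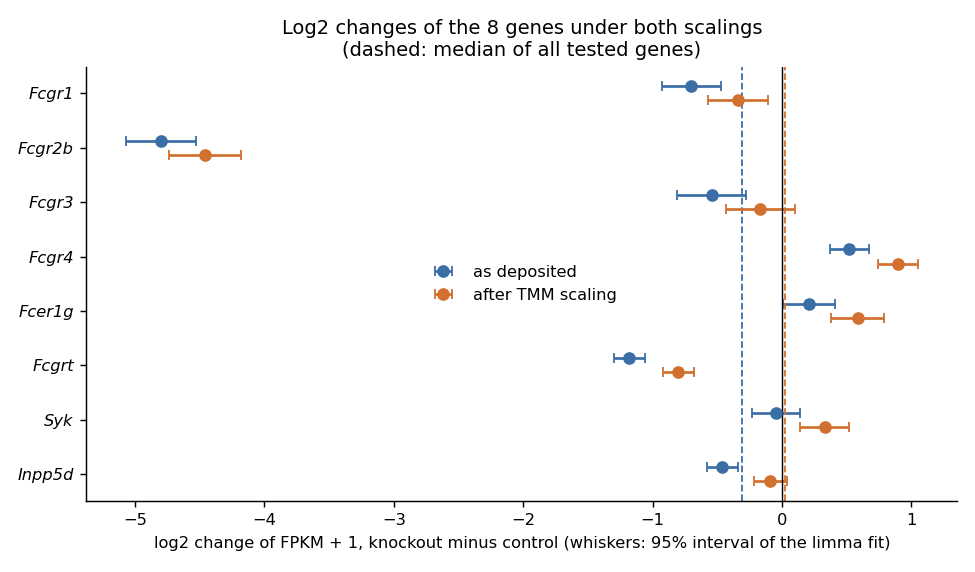
Log2 change of FPKM + 1, knockout minus control (horizontal axis), for each of the 8 genes as deposited (blue) and after TMM scaling (orange), with 95% intervals of the limma fit; dashed lines are the medians of all tested genes, -0.31 and 0.02. Fcgr2b lies at -4.80 and -4.46, while the others lie between -1.18 and 0.90.

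Ratios between genes of 1 library do not depend on how that library is scaled, and are given as descriptions. Fcgr4 over Fcgr2b was 0.757, 0.734 and 0.837 in the controls and 33.8, 38.0 and 42.9 in the knockouts. Fcgr3 over Fcgr2b was 2.12, 2.12 and 3.09 in the controls and 49.7, 48.7 and 73.7 in the knockouts. The summed activating receptors over Fcgr2b went from 3.42 ± 0.666 to 99.8 ± 18.9, a 29.1-fold difference in the means. Most of that shift came with Fcgr2b: the summed activating receptors themselves were 499 ± 36.1 FPKM in controls and 427 ± 38.3 FPKM in knockouts.

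Within the activating receptors, Fcgr4 stood higher relative to Fcgr3 in each knockout library than in any control library. Fcgr3 over Fcgr4 was 2.80, 2.88 and 3.69 in the controls and 1.47, 1.28 and 1.72 in the knockouts. The ratio of Fcer1g to the summed activating receptors was 1.54 ± 0.0631 in controls and 2.09 ± 0.207 in knockouts, and did not overlap between the groups. Syk over Inpp5d was 2.35, 2.42 and 2.58 in the controls and 3.29, 2.90 and 3.69 in the knockouts. The ratios of Fcer1g to its receptors and of Syk to Inpp5d were higher in all 3 knockout libraries than in any control library, and their spread was wider among knockouts.

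Of the summed FPKM of the 4 ligand-binding receptors, Fcgr2b held 22.9 ± 3.18% in controls and 1.01 ± 0.173% in knockouts. The share of Fcgr4 was 17.7 ± 1.38% and 38.3 ± 3.25% in the same order. Fcgr3 held 54.8 ± 4.02% and 56.5 ± 3.51%, with overlapping libraries, and Fcgr1 4.60 ± 0.520% and 4.15 ± 0.143%. The sum of the 4 was 647 ± 21.2 FPKM in controls and 431 ± 38.5 FPKM in knockouts.

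**Figure D3:**
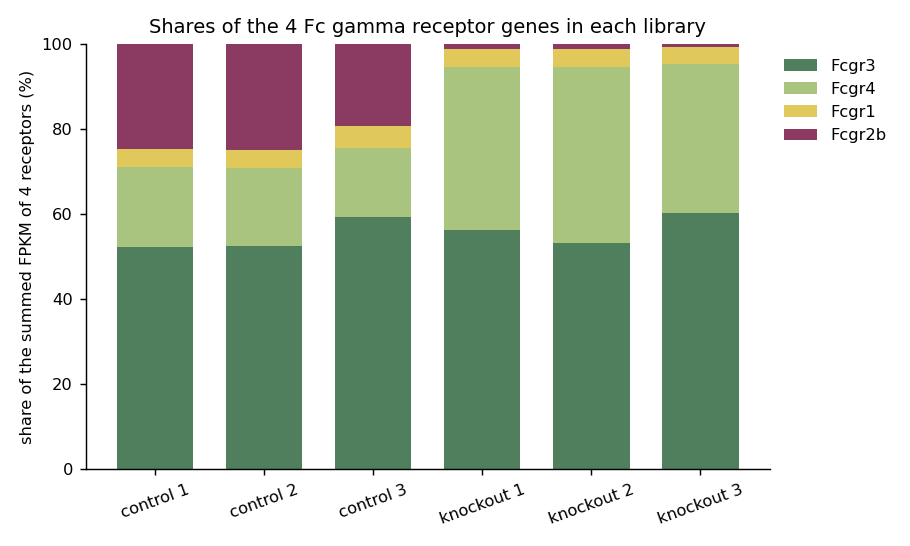
Share of each of 4 receptor genes in their summed FPKM (vertical axis, percent) for each library. Fcgr2b takes 19.3 to 24.9% of a control bar and 0.816 to 1.13% of a knockout bar, and Fcgr4 16.1 to 18.7% and 35.0 to 41.5%.

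Fcgr2b (Entrez gene 14130, chromosome 1, 170960558 to 170976071), Fcgr4 (246256, 171018926 to 171029761) and Fcgr3 (14131, 171051169 to 171065915) lie next to each other within 105 kb in GRCm38. Fcer1g (14127, 171229572 to 171234349) lies 164 kb beyond Fcgr3. Fcgr1 is on chromosome 3 (14129, 96282909 to 96293969), Fcgrt on chromosome 7 (14132, 45092993 to 45103822), Syk on chromosome 13 (20963, 52582610 to 52648792) and Inpp5d far from the cluster on chromosome 1 (16331, 87620312 to 87720510). Within 200 kb of the 4 genes of the cluster, RefSeq annotates 65 other genes, of which 25 were listed and 20 tested. By limma 0 of these 20 were called higher as deposited (0 at an unadjusted p under 0.05) and 12 lower, and TMM gave 4 higher and 5 lower. Of all tested genes 58.8% were lower as deposited and 26.0% with TMM, so the neighbours' falls were near the table's rate. The largest falls among them were those of B4galt3 (log2 change -1.02, -0.67 with TMM), Fcrlb (-1.0, -0.79), Ppox (-0.95, -0.59) and Fcrla (-0.93, -0.74), and Usf1 fell too (-0.73, -0.36).

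Between Fcgr2b and the genes nearest to it the changes differed in sign and size. On the side away from Fcgr4, the Fc receptor-like genes Fcrla and Fcrlb, which are known from B cells, had 2.09 ± 0.725 and 2.47 ± 0.507 FPKM in controls and 0.597 ± 0.163 and 0.723 ± 0.163 FPKM in knockouts. On the other side stood Fcgr4, which rose, and Fcgr3. Dusp12, Usp21, Ufc1, Dedd, Tomm40l and Arhgap30 fell as deposited only, with log2 changes of -0.21 to -0.51. Atf6, Sdhc, Nit1 and Pfdn2 were not called as deposited and rose after TMM scaling, and Cfap126, Klhdc9, Nectin4 and Tstd1 were called under neither. Pcp4l1, Nr1i3, Apoa2 and Adamts4 were among those under the level tested.

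**Figure D4:**
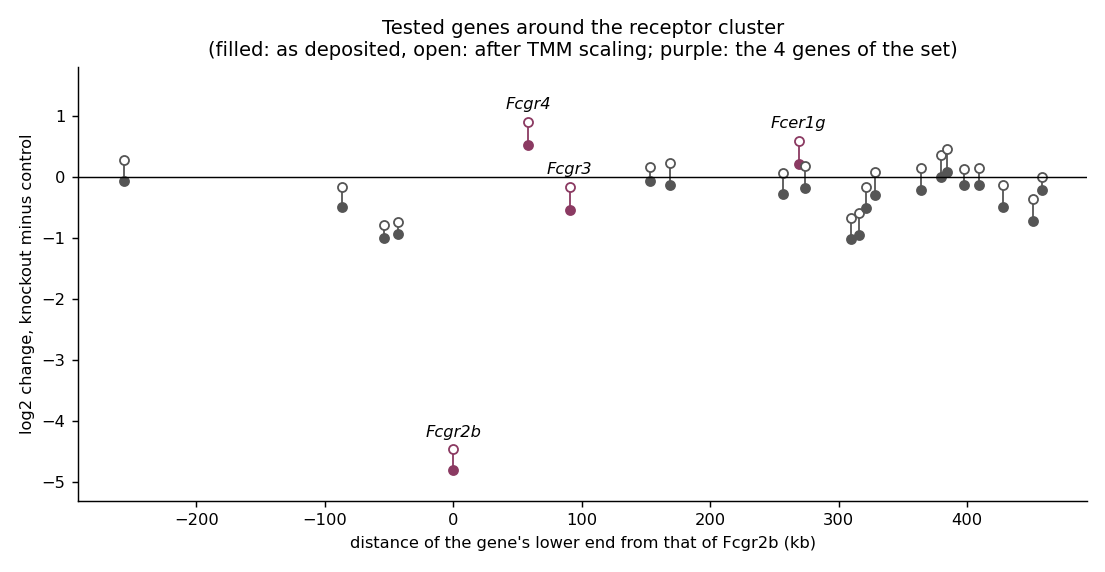
Log2 change, knockout minus control (vertical axis), of tested genes within 200 kb of the cluster against their distance from Fcgr2b in kb; filled points are values as deposited, open points after TMM scaling, purple the 4 genes of the set. Fcgr2b stands alone near -4.80, while its neighbours lie between -1.02 and 0.90.

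The promoters of the 3 neighbouring receptors, which had different changes, are printed from 250 bases before to 50 after an annotated start (RefSeq, GRCm38.p6). The Fcgr2b and Fcgr4 windows lie at the ends of their genes' spans. That of Fcgr3 lies inside its gene, which reaches 171065915 on the minus strand, and so belongs to an internal start. Capitals mark GAGGAA on either strand, a core of the sites bound by PU.1, the macrophage factor encoded by Spi1. It occurred in the printed Fcgr3 and Fcgr4 windows and not in that of Fcgr2b, and 28.3% of 32851 promoters hold it. Only this string was searched, so a window without it may still hold a PU.1 site in other letters. All 8 genes matched the promoter table.
Fcgr2b promoter, chr1:170976022-170976321, minus strand: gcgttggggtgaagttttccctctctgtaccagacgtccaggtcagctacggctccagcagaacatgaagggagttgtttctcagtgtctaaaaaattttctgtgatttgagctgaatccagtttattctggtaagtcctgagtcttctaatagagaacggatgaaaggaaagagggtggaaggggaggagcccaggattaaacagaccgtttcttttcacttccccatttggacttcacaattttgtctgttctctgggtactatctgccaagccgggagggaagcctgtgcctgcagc
Fcgr3 promoter, chr1:171059354-171059653, minus strand: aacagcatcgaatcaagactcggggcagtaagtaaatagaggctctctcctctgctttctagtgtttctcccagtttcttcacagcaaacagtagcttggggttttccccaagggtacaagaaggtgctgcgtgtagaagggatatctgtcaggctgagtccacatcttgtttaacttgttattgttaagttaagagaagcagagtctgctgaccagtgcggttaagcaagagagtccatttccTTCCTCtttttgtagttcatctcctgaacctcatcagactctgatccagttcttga
Fcgr4 promoter, chr1:171018676-171018975, plus strand: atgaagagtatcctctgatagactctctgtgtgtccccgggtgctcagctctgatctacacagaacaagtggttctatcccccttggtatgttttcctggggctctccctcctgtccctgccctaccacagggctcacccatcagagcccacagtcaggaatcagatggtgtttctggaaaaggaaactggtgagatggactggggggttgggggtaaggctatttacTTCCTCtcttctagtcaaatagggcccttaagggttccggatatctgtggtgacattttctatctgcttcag

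The Fcgr1, Inpp5d and downstream Syk windows also held GAGGAA, and those of Fcer1g and Fcgrt did not. Of TTCNNNGAA, the site of STAT factors, the Fcgr1 window alone held a match (8.3% of all promoters do), and TGANTCA, the AP-1 site, was in none of them (7.8%). A match describes letters only. Spi1 itself had 293 ± 10.8 FPKM in controls and rose to 361 ± 4.87 FPKM, a gene picked with its values known (log2 change 0.30; limma adjusted p = 0.0013; 0.68 with TMM).

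Downstream of the ITAM, 5 of 23 tested genes of a list of proximal kinases and adaptors rose and 12 fell as deposited, and TMM gave 7 higher and 7 lower. Of all tested genes, as given above, 11.0% were higher and 58.8% lower as deposited and 30.0% and 26.0% with TMM, and the counts of this list and of those that follow are to be read against these shares. The list's median log2 change was -0.30 or, with TMM, -0.03, beside -0.31 and 0.02 for all tested genes. The Src family kinase Fyn fell from 17.4 ± 1.87 to 2.86 ± 0.187 FPKM (log2 change -2.25, -1.93 with TMM). Lyn, which acts on both the ITAM and the ITIM and was chosen after its values were seen, rose from 124 ± 6.83 to 191 ± 7.75 FPKM (0.62, 0.99). Of the tested Src family kinases Lyn had the highest level in both groups, ahead of Fgr at 101 ± 9.41 and 81.5 ± 5.71 FPKM.

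The phospholipase Plcg2 fell from 58.3 ± 2.72 to 31.0 ± 2.01 FPKM (log2 change -0.89, -0.52 with TMM). Malt1 and Bcl10, which relay Syk signals to NF-kB with Card9, fell with log2 changes of -1.08 and -0.78 (-0.73 and -0.42 with TMM). The adaptor Sh3bp2, which binds Syk, rose from 66.2 ± 0.895 to 109 ± 2.43 FPKM (0.71, 1.08). Lcp2, the adaptor SLP-76, and Tyrobp, the other ITAM chain of macrophages, were chosen after their values were seen and rose with log2 changes of 0.65 and 0.19 (1.02 and 0.57 with TMM). Tyrobp stood at 1243 ± 22.2 and 1421 ± 88.2 FPKM, above Fcer1g in both groups.

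Genes of the phagocytic cup, which drive lipid and actin changes under a bound particle, gave 5 higher and 26 lower of 43 tested as deposited, and TMM gave 18 higher and 10 lower. The falls as deposited were near the 58.8% of all tested genes. Their median log2 change was -0.24 as deposited and 0.11 after TMM scaling. The actin-severing gene Gsn rose from 67.6 ± 5.95 to 247 ± 27.8 FPKM (log2 change 1.85, 2.23 with TMM). The GTPase Rac2, which also activates the oxidase, rose from 62.7 ± 1.52 to 117 ± 7.38 FPKM (0.88, 1.26). The exchange factor Vav2, the lipid kinases Pip5k1c and Pik3cg and the phospholipase Pld1 fell, with log2 changes of -0.99, -0.97, -0.92 and -0.88 (-0.62, -0.60, -0.57 and -0.54 with TMM).

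In the phagocyte oxidase, which makes superoxide in the phagosome, 1 of 6 tested genes rose and 3 fell as deposited, beside 11.0% and 58.8% of all tested genes. TMM gave 4 higher and 0 lower by limma, and 0 lower at an unadjusted p under 0.05, beside 30.0% and 26.0%. The membrane subunit Cyba rose from 763 ± 17.9 to 963 ± 57.5 FPKM (log2 change 0.33, 0.71 with TMM). The proton channel Hvcn1 and the subunit Ncf1 fell as deposited only (log2 changes -0.37 and -0.34, 0.01 and 0.04 with TMM). The median log2 change was -0.18 and 0.19.

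Among other inhibitory phosphatases and adaptors, 0 of 13 tested genes were called higher by limma as deposited, also 0 at an unadjusted p under 0.05, and 7 lower. TMM gave 7 higher and 4 lower, and the medians were -0.17 and 0.20. Without control replicate 3, 2 were called higher as deposited. The adaptor Dok3 fell from 140.3 ± 2.59 to 76.4 ± 5.66 FPKM (log2 change -0.87, -0.50 with TMM). Rasa1 and the ubiquitin ligase Cblb fell under both scalings (-0.72 and -0.63, -0.38 and -0.32 with TMM), while Pag1 and the kinase Csk fell as deposited only (-0.55 and -0.25, -0.18 and 0.12).

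Of other receptors that use Fcer1g, 3 of 7 tested rose and 3 fell under either scaling, with a median log2 change of -0.24 or, with TMM, 0.14. The C-type lectins Clec4d and Clec4n rose, from 12.6 ± 1.39 to 41.8 ± 6.44 FPKM (log2 change 1.65, 2.01 with TMM) and from 317 ± 20.1 to 573 ± 14.7 FPKM (0.85, 1.23). Clec4e, a lectin for mycobacterial glycolipid, fell from 14.6 ± 2.60 to 3.58 ± 0.336 FPKM (-1.76, -1.43). Cd300ld rose (1.66, 2.02), and the paired receptor genes Pira6 and Pira2, near copies whose division of reads is uncertain, fell (-1.25 and -1.02, -0.89 and -0.65 with TMM).

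Of other immunoglobulin receptors, 6 of 14 were tested, and by limma 0 were called higher as deposited, also 0 at an unadjusted p under 0.05, and 5 lower. TMM gave 1 higher and 4 lower, and the medians were -0.97 and -0.76. Without a filter on low values 1 was called higher. The low-affinity IgE receptor Fcer2a, the IgM receptor Fcmr and Fcrla and Fcrlb fell under both scalings, from control means of 2.59 ± 0.567, 3.90 ± 1.77, 2.09 ± 0.725 and 2.47 ± 0.507 FPKM to 0.773 ± 0.302, 0.937 ± 0.449, 0.597 ± 0.163 and 0.723 ± 0.163 FPKM. They are known from B cells, whose markers were 3.59 times lower in knockouts, and the part of those cells was not tested. Trim21, a cytosolic antibody receptor, fell as deposited only (log2 change -0.42, -0.11 with TMM). The mast cell IgE receptor genes Fcer1a and Ms4a2 did not exceed a mean of 0.0167 FPKM in either group. Fcer2a, Fcmr, Fcer1a and Ms4a2 were chosen after their values were seen.

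Interferon-gamma and the complement fragment C5a are known to raise activating receptors on mouse macrophages. Of a list of cytokine and complement inputs that holds their receptors, 2 of 13 tested genes rose and 10 fell as deposited, and TMM gave 3 higher and 7 lower. The list's median log2 change was -0.75 or, with TMM, -0.39, beside -0.31 and 0.02 for all tested genes. Il4ra, the interleukin receptor subunit, fell from 66.5 ± 11.5 to 28.1 ± 3.67 FPKM (log2 change -1.21, -0.84 with TMM). The C5a receptors C5ar1 and C5ar2 fell (-0.83 and -1.04, -0.45 and -0.72 with TMM), and so did Ifngr1, Stat3 and Tgfbr1 (-0.76, -0.83 and -0.79, or -0.39, -0.46 and -0.42 with TMM).

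**Figure D5:**
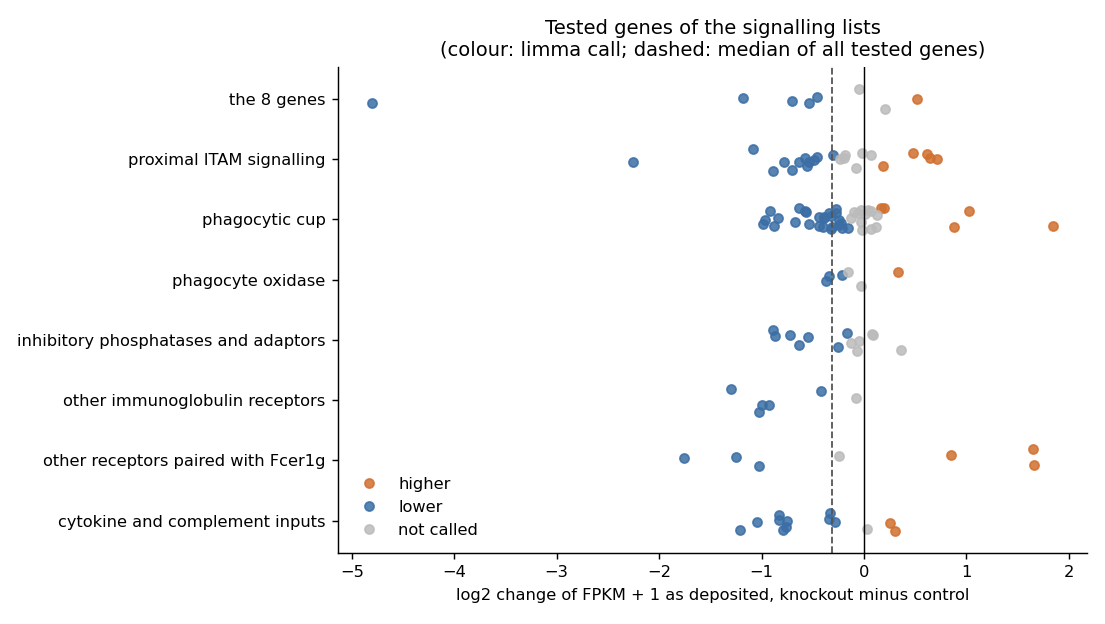
Log2 change of FPKM + 1 as deposited (horizontal axis) of each tested gene of the set and of 7 lists around it, coloured by its limma call; vertical scatter has no meaning, and the dashed line is the median of all tested genes, -0.31. Fcgr2b at -4.80 lies beyond every gene of the lists, the lowest of which is Fyn at -2.25.

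Tested genes with the profile most like that of each receptor were sought by the Euclidean distance of log2(FPKM + 1), less the gene's control mean, over the 6 libraries. For Fcgr2b these were Ear1 (distance 0.27), 1 of a family of near copies whose division of reads is uncertain, Gal (0.29) and Fn1 (0.50). For Fcgr4 they were Rragc (0.04), Tecpr1 (0.10) and Wdr26 (0.10). Hook3, Ankrd44 and Parp11 were nearest to Fcgr1 (0.05 to 0.11), and Creb1, Paip2 and Sgk3 to Fcgr3 (0.07 to 0.12). Rragc, a GTPase of lysosomal nutrient sensing, read 68.32, 71.04 and 62.73 FPKM in the controls and 101.87, 94.44 and 94.18 FPKM in the knockouts. Its order of libraries within each group was that of Fcgr4, but Rragc was picked for nearness over these same values.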

How the data were processed

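The authors deposited gene-level FPKM with 1 column per library, per the file headers, made with Bowtie2 and RSEM on mm10, per the submitters' processing notes, which give no versions. The sources used here do not give strand handling. In genes with 1 listed transcript, the most frequent ratio of a library's low values to those of control replicate 1 was 95.4 to 103.8%. At equal fragment counts this ratio runs inversely to depth. The total depth is unknown, and values therefore carry no counting interval.

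For 10847 genes whose mean over the 6 libraries reached 1 FPKM, limma 3.58.1 (R 4.3.3) was fitted to log2(FPKM + 1) with genotype as the only term and trended, robust empirical Bayes. Tests were two-sided, and p-values were adjusted by Benjamini-Hochberg over all of them. The added 1 FPKM understates changes of low genes. TMM divisors, computed from the FPKM with 30% of log ratios and 5% of levels trimmed, were 1.135 to 1.149 for controls and 0.873 to 0.883 for knockouts. The fit was tested on simulated data.

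Symbols of 24 genes that had become dates were restored through Entrez IDs, and 18342 IDs matched RefSeq on GRCm38.p6, the assembly mm10 corresponds to. The named genes are the 8 of the set, up to 6 called genes per list with the largest change and at least 5 FPKM in the higher group, B2m, Hdac3, listed neighbours within 200 kb and the 3 genes nearest each receptor. Some genes that this rule names are not reported here. The members and lists were chosen with earlier results of these data known.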

Additional observations from a re-analysis of the deposited data

How the results depend on the processing

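After TMM scaling the log2 changes of Fcgr3 (-0.17) and Inpp5d (-0.09) were no longer called, Fcer1g (0.59) became called and Syk turned to 0.33. Calls over all tested genes went to 3248 higher and 2808 lower from 1194 and 6376, and in the set to 3 higher and 3 lower. The TMM counts were 7 lower for proximal ITAM genes, 18 higher and 10 lower for the phagocytic cup, 4 higher and 0 lower for the oxidase, 7 higher and 4 lower for inhibitory genes and 1 higher for other immunoglobulin receptors. Rescaling each library to the same FPKM sum gave 3 higher in the phagocytic cup, 5 lower among receptors paired with Fcer1g and 1 higher among cytokine and complement inputs. Without a filter on low values 1 other immunoglobulin receptor was higher and 6 receptors paired with Fcer1g were lower. A pseudocount of 0.1 and plain empirical Bayes kept all 26 results on their side. The cause of these moves was not tested.

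Leaving out 1 library at a time gave Fcer1g 0.14 to 0.28, Syk -0.13 to 0.04 (above 0 without knockout replicate 2), 1 to 2 members called higher and 0 to 2 inhibitory genes called higher (2 without control replicate 3). Fcgr2b stayed between -4.91 and -4.71, Fcgr4 between 0.48 and 0.55, Fcgrt between -1.20 and -1.16 and Fcgr1 between -0.76 and -0.59, all called. Deviations of same-numbered libraries from their group means correlated at -0.105, -0.056 and -0.086, and those of other pairs at 0.013 to 0.088. As the deviations of 3 libraries sum to 0 for each gene, these values cannot decide whether same-numbered libraries were paired. With a replicate block Fcer1g (log2 change 0.21; limma adjusted p = 0.038) was called, which made 2 members higher.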
